A study of Mus musculus with 6 samples.

Results

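Sialic acids are the sugars that cap many glycans of the B cell surface, and 4 genes that act on them were followed in mouse germinal centre (GC) B cells: Cmah, St6gal1, Cmas and Neu1. They were chosen by name with earlier results of these data in view, among them the KO to control ratio of Cmah, so KO to control ratios are given here as descriptions without a test, as are levels by cluster. It is not known whether zone, phase or day values were also in view. The p-values of those comparisons may therefore not be free of the choice of genes. All 4 were counted in every library, out of 14548 gene symbols listed in all 3 deposited count tables, and all 4 passed the filter on low counts in every test.

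The antibody GL7 is the classical stain for mouse GC B cells, and it recognises N-acetylneuraminic acid (Neu5Ac) attached to the sixth position of galactose. Cmas activates sialic acid by joining it to CMP, Cmah hydroxylates CMP-Neu5Ac to CMP-Neu5Gc, St6gal1 places sialic acid at the sixth position of galactose, and Neu1 is the lysosomal sialidase that removes it. Mouse B cells outside the GC carry mostly Neu5Gc, for which the mouse inhibitory receptor CD22 has a preference, and a low level of Cmah in activated B cells is what exposes the GL7 epitope. Every cell described here was sorted as GL7hi, so the levels below hold within that gate, and the epitope itself was not measured.

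Mice were immunised intraperitoneally with an antigen carrying the hapten NP, given in alum, and spleen cells were profiled by droplet sequencing of transcript 5′ ends. The Chimaera_KO library came from irradiated Ccl19Cre/+ Il4raf/f hosts and the Chimaera_control library from irradiated Il4ra+/+ hosts, both rebuilt with wild type marrow and sorted at day 14 as B220+ CD95hi GL7hi IgD-. In the deposited cell table these libraries are named WT2IL4RA_cKO and WT2WT, and they were matched to the KO and control labels by those names and by the prefixes ko and ctrl on their receptor-sequencing barcodes, a match on which the direction of every KO to control ratio rests. The 2 Day14 libraries came from wild type mice with the same gate, and the 2 Day7 libraries from wild type mice at day 7, sorted as B220+ CD38- GL7hi. Ccl19Cre acts in stroma, follicular dendritic cells among it, so the sorted donor cells carried intact Il4ra and its transcript does not check the labels. The libraries held 1012 to 10648 cells and 20339933 to 62202828 unique molecular identifiers (UMIs, each standing for 1 captured transcript). Median UMIs per cell were 3399 and 3178.5 at Day14, 17277.5 and 18233.5 at Day7, 7185.5 in the KO library and 6676 in the control. The GC genes Fas and Bcl6 were detected in every library, at 84.7 to 136 and 36.4 to 142 CPM (the counts of a gene scaled to a common library total). Pairs of libraries shared 1 to 135 cell barcodes. Summed markers of other cells stood at 55.7 to 125 CPM for T cells, 14.9 to 33.3 CPM for myeloid cells, 29.7 to 112 CPM for stroma and 59.1 to 621 CPM for erythroid cells, the last highest in Day7 replicate 1. Cd8a or Cd3e was at 0 in 4 libraries, and Pdgfra and Pdpn in the 4 libraries whose tables list them. Levels are CPM of the summed counts of a library or cluster, with exact 95% Poisson intervals that cover counting error only. The 3 tables list different symbols, 31053 at Day14, 27998 without immunoglobulin genes at Day7 and 15763 in the chimaeras, so levels set across tables are approximate. Clusters, zone calls and phase calls are the authors', and calls of this kind rest on transcripts of the same cells. Cluster names ending in -like come from marker genes.

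The 4 genes lie on the plus strand of 4 chromosomes in the GRCm38 assembly (GENCODE vM21). Cmah spans chr13:24327404-24477377, St6gal1 chr16:23224740-23360350, Cmas chr6:142756686-142775714 and Neu1 chr17:34931253-34935953. All are protein-coding. The 250 bases before the first annotated start are shown from RefSeq (GRCm38.p6) for the hydroxylase, for the enzyme that supplies its substrate and whose level followed it most closely among the 4, and for the transferase that builds the epitope. CG dinucleotides are in capitals. The intervals are chr13:24327154-24327403, chr6:142756436-142756685 and chr16:23224490-23224739.
Cmah: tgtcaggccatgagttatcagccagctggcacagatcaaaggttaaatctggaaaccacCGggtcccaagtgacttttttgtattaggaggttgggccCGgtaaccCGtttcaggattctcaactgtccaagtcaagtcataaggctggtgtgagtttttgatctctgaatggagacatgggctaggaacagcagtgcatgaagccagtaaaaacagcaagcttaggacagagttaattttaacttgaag
Cmas: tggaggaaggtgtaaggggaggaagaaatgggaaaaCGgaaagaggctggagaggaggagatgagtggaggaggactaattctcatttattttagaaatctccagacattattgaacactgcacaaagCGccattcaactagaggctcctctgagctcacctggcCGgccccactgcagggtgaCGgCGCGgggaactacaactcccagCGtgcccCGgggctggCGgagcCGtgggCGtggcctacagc
St6gal1: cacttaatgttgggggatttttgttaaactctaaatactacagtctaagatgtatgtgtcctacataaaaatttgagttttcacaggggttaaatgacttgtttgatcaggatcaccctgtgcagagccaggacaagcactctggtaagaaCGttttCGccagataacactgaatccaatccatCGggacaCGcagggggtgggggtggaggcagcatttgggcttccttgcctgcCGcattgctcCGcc
The Cmah window held 3 CG dinucleotides, the Cmas window 11 and the St6gal1 window 6, beside a median of 6 over 32851 such windows. The Neu1 window, chr17:34931003-34931252, held 8. The table gives a second start for Cmah, with 2 CG dinucleotides, and 2 more for St6gal1, with 10 and 5. On either strand, none of the 7 windows held the palindromic letters TTCNNNGAA or CACGTG, which occur in 7.02% and 6.02% of all windows. CCAAT, found in 33.8% of all windows, occurred in all 3 St6gal1 windows and in the second Cmah window, and GGGCGG, found in 32.7%, occurred once in the Neu1 window.

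Within each library, Cmah was the gene of the 4 whose level ran furthest apart between clusters of at least 50 cells. Its highest cluster stood 24.04-fold and 22.0-fold above its lowest at Day14, 4.11-fold and 15.1-fold at Day7, 7.55-fold in the KO library and 8.66-fold in the control. St6gal1 ranged 6.02-fold and 5.66-fold at Day14 and 1.89-fold to 2.17-fold in the other 4 libraries. Cmas ranged 1.24-fold to 3.46-fold and Neu1 1.403-fold to 3.11-fold over the 6 libraries. Clusters were drawn on the same cells, so these ranges describe the cells and test nothing.

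Among clusters of at least 50 cells, the lowest Cmah was in the MYC-high selected-like cluster of every library, named for the growth genes that selected GC cells switch on. Cmah stood there at 6.20 and 4.58 CPM at Day14, at 10.2 and 8.12 CPM at Day7, at 5.39 CPM in the KO library and at 6.502 CPM in the control. These values rest on 15 to 99 counts each. At Day14 and in the chimaeras the light zone-like and cycling-like clusters lay above it and close together. At Day14 the light zone-like cluster had 12.1 and 14.0 CPM, and the 2 dark zone or cycling-like clusters had 9.13 and 9.94 CPM and 11.1 and 13.3 CPM. The 95% intervals of these 3 clusters overlapped one another in each Day14 library. In the chimaeras, the light zone-like cluster had 12.8 CPM in the KO and 14.5 CPM in the control library, and the cycling-like cluster 11.1 CPM in the KO and 12.9 CPM in the control. At Day7 the 2 cycling-like clusters stood apart in replicate 1, at 36.2 CPM in cluster 4 (95% interval 29.9 to 43.5) and 19.7 CPM in cluster 1 (15.8 to 24.2), and had 24.1 and 17.3 CPM in replicate 2.

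The highest Cmah was in cells with markers of leaving the GC. The memory precursor-like cluster, raised in genes such as Ccr6, Cd38 and Klf2, had 56.1 and 65.7 CPM at Day14, and 25.4 CPM in the KO and 56.3 CPM in the control library. The plasma-like cluster had 40.8 CPM in the KO and 54.9 CPM in the control library. At Day14 the 2 clusters with plasma cell markers differed from each other. Cluster 9, in which immunoglobulin made up 12.7% of UMIs, had 149 and 101 CPM of Cmah, whereas cluster 8, with 1.97% immunoglobulin, had 14.6 and 12.1 CPM from 4 and 3 counts (with upper 95% limits of 37.3 and 35.4 CPM). At Day7 the plasma-like cluster reached 122.9 CPM in replicate 2, and in replicate 1 it held 49 cells, under the minimum used here. Day7 cluster 3, which has no name because haemoglobin and myeloid transcripts lead it, had 42.2 and 43.9 CPM, second to the plasma-like cluster in replicate 2 and highest in replicate 1. Summed, the memory precursor-like cells gave 28.5% and 17.5% of the Cmah counts of the Day14 libraries from 7.90% and 3.86% of their UMIs, and they gave 28.7% of the Cmah counts of the KO library and 43.7% of those of the control from 15.1% and 18.1% of the UMIs.

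**Figure D1:**
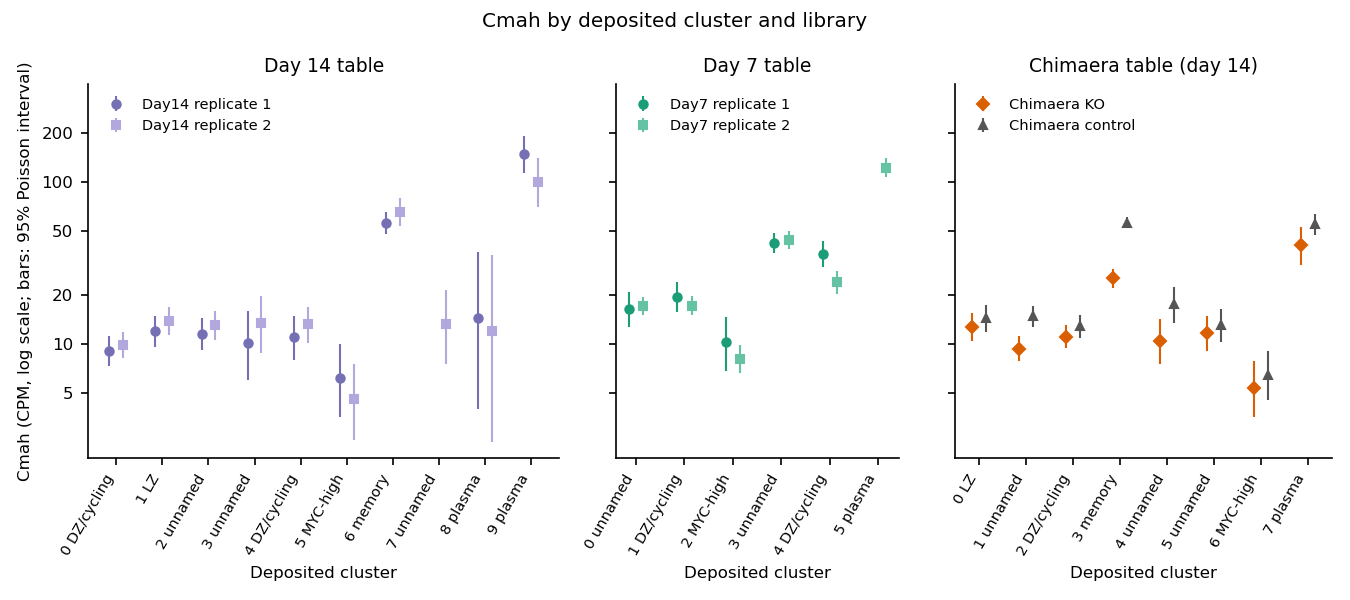
Cmah level (CPM, log scale) in each deposited cluster with at least 50 cells, 1 point per library, with 95% Poisson bars. The MYC-high cluster is lowest in each library, at 4.58 to 10.2 CPM, and a memory-like or plasma-like cluster is highest in each library but Day7 replicate 1, where unnamed cluster 3 is (42.2 CPM).

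St6gal1, the transferase, was also lowest in the MYC-high selected-like cluster in every library, but it was not high in the memory precursor-like cells. In the MYC-high cluster it stood at 114 and 122 CPM at Day14, at 139 and 135 CPM at Day7, at 119.9 CPM in the KO and at 97.9 CPM in the control library. At Day7 its highest clusters were the ones highest in Cmah, cluster 3 in replicate 1 (262 CPM) and the plasma-like cluster in replicate 2 (259.9 CPM). The memory precursor-like cluster came next to lowest at Day14, with 166 and 169.9 CPM, and had 167 CPM in the KO and 132 CPM in the control library. The light zone-like cluster had more, with 249 and 263 CPM at Day14, 241 CPM in the KO and 200.03 CPM in the control library. Among clusters of at least 50 cells, the highest St6gal1 was in Day14 cluster 8, with 684 and 691 CPM, where the intervals of both libraries lay above those of every other Day14 cluster with at least 50 cells. The other Day14 plasma-like cluster, number 9, had 229 and 207 CPM. The 2 clusters with plasma cell markers thus differed in both genes, cluster 8 with the higher St6gal1 and cluster 9 with the higher Cmah.

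Cmas, the CMP-sialic acid synthetase, was highest in a plasma-like cluster in the 5 libraries that had one of at least 50 cells. It stood at 61.7 and 60.3 CPM in Day14 cluster 9, at 81.9 CPM in Day7 replicate 2, at 36.5 CPM in the KO and at 34.7 CPM in the control library. In all other clusters of at least 50 cells it ranged from 25.6 to 50.9 CPM at Day14, from 29.7 to 41.3 CPM at Day7, from 15.8 to 19.7 CPM in the KO and from 10.0 to 16.9 CPM in the control library. Neu1, the sialidase, was highest in Day14 cluster 3, whose cells are shallow at a median of 1221 UMIs, with 80.5 and 89.4 CPM. The other Day14 clusters of at least 50 cells had 28.7 to 69.1 CPM of Neu1, Day7 clusters 18.3 to 34.5 CPM, KO clusters 23.3 to 32.7 CPM and control clusters 16.9 to 30.8 CPM.

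**Figure D2:**
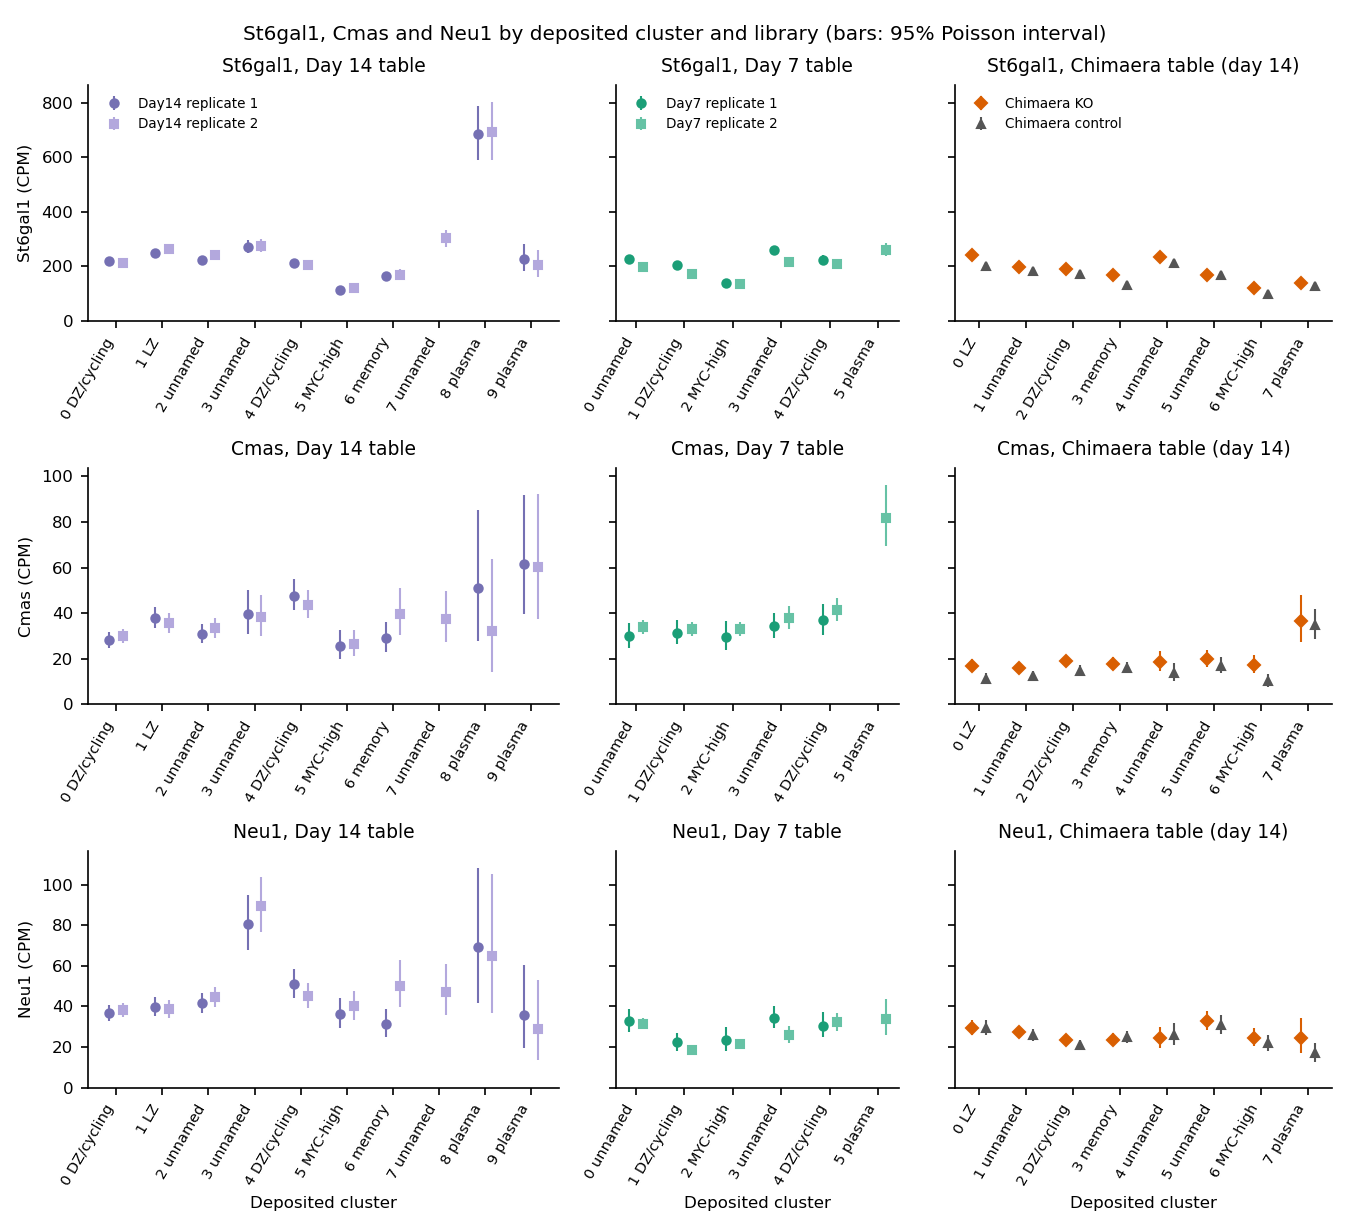
St6gal1, Cmas and Neu1 (CPM) in each deposited cluster with at least 50 cells, 1 point per library, with 95% Poisson bars. St6gal1 peaks in Day14 cluster 8 (684 and 691 CPM), Cmas in the plasma-like clusters and Neu1 in Day14 cluster 3 (80.5 and 89.4 CPM).

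Across 46 library-by-cluster sums, on log2(CPM + 5) values centred within each library, Cmah and Cmas were the pair of the 4 with the most similar pattern (Pearson r = 0.739). St6gal1 and Neu1 had r = 0.561, Cmah and St6gal1 r = 0.139, and Cmah and Neu1 r = -0.037. Cmah and Cmas parted in the Day14 memory precursor-like cluster, which ranked 2 of 10 clusters by mean Cmah and 7 of 10 by mean Cmas. In the chimaeras that cluster ranked 2 of 8 for Cmah and 3 of 8 for Cmas. The sums share libraries, so r is a description. Among 4505 other genes at a mean of at least 20 CPM in each table, those closest to Cmah were Cytip (r = 0.924), Selplg (r = 0.893), Rabac1 (r = 0.868), Rsrp1 (r = 0.864) and Trim30a (r = 0.855). Among those most opposed to it were Net1 (r = -0.918) and Srsf1 (r = -0.866). St6gal1 was closest to Man2a1, a Golgi mannosidase that trims N-glycans (r = 0.888), Eif2ak3 (r = 0.856), Ptpra (r = 0.852), Zfp292 (r = 0.845) and Gsk3b (r = 0.843), and most opposed to Eef1d (r = -0.846), Bola2 (r = -0.809) and Pdcd5 (r = -0.801). Among the genes closest to Cmas were Trabd (r = 0.920), Trp53inp1 (r = 0.906), Yipf5 (r = 0.905) and Uso1 (r = 0.901), and it was most opposed to Marcksl1 (r = -0.871), Rbck1 (r = -0.862) and Brd3 (r = -0.855). Neu1 had weaker partners, the closest being Trim11 (r = 0.761), Tor1aip2 (r = 0.729), Eif2ak3 (r = 0.724), Sdccag3 (r = 0.720) and Nfrkb (r = 0.713), and the most opposed Cuta (r = -0.755), Eef1b2 (r = -0.742) and Mrpl14 (r = -0.693).

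Light zone (LZ) cells, which take up antigen and meet T cells, were compared with dark zone (DZ) cells, which divide and mutate their receptors, within each library. Cells with the zone call unknown were left out, 74 and 115 at Day14, 360 in the KO and 643 in the control library. Their Cmah was 23.5 CPM in the KO and 28.1 CPM in the control library, and rested on 0 and 2 counts at Day14. Cmah was higher in LZ than in DZ cells in 6 of 6 libraries. It had 20.4 CPM in LZ and 13.2 CPM in DZ cells of Day14 replicate 1, and 17.3 CPM in LZ and 13.2 CPM in DZ cells of Day14 replicate 2. At Day7 it had 35.3 CPM in LZ and 26.2 CPM in DZ cells of replicate 1, and 26.9 CPM in LZ and 20.02 CPM in DZ cells of replicate 2. In the KO library it had 17.4 CPM in LZ and 10.9 CPM in DZ cells, and in the control library 33.9 CPM in LZ and 16.3 CPM in DZ cells. With the library as a block, the log2 difference was 0.59 (SE 0.09, edgeR quasi-likelihood test, adjusted p = 0.000199), and the exact two-sided sign-flip test over the 6 libraries gave p = 0.03125, the smallest it can give. Of all 10862 genes tested, 31.3% were called higher in LZ and 29.3% lower, so a call by itself sets no gene apart. Among G1 cells LZ was the higher in each library. Among S cells LZ had 10.8 and 8.97 CPM against 11.7 and 12.3 CPM in DZ at Day14. At Day7, LZ had 19.3 and 11.9 CPM against 22.3 and 17.7 CPM in DZ among S cells. In the chimaeras LZ stayed the higher among S cells, at 12.4 against 9.25 CPM in the KO and 18.2 against 14.5 CPM in the control library. Zone differences within S cells were not tested.

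The direction of the Cmah zone difference depended on which cells were counted. Cells of the memory precursor-like and plasma-like clusters and of Day7 cluster 3 made up 7.76% to 55.5% of the LZ cells of a library and 2.38% to 15.2% of its DZ cells. These clusters were picked with their Cmah level known, most of them for a high one, so leaving them out lowers LZ by the choice itself. Without them, an alternative chosen after seeing the data, Cmah was lower in LZ than in DZ cells, by a log2 difference of -0.28 (SE 0.08). That fit called 28.1% of 10378 genes higher and 24.7% lower, and for Cmah it is a description and no test. Without the MYC-high selected-like clusters, which are low in Cmah, the difference was instead 0.82 (SE 0.08), also an alternative chosen after seeing the data and no test. Without the memory precursor-like and plasma-like clusters and Day7 cluster 3, it had 9.67 and 10.6 CPM in LZ against 10.8 and 12.1 CPM in DZ cells at Day14, and 14.6 and 12.4 CPM in LZ against 22.5 and 17.3 CPM in DZ cells at Day7. In the chimaeras it had 10.4 CPM in LZ and 10.1 CPM in DZ cells of the KO library, and 12.4 CPM in LZ and 13.4 CPM in DZ cells of the control. The KO library was thus the one of 6 in which LZ stayed the higher, within its counting interval.

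**Figure D3:**
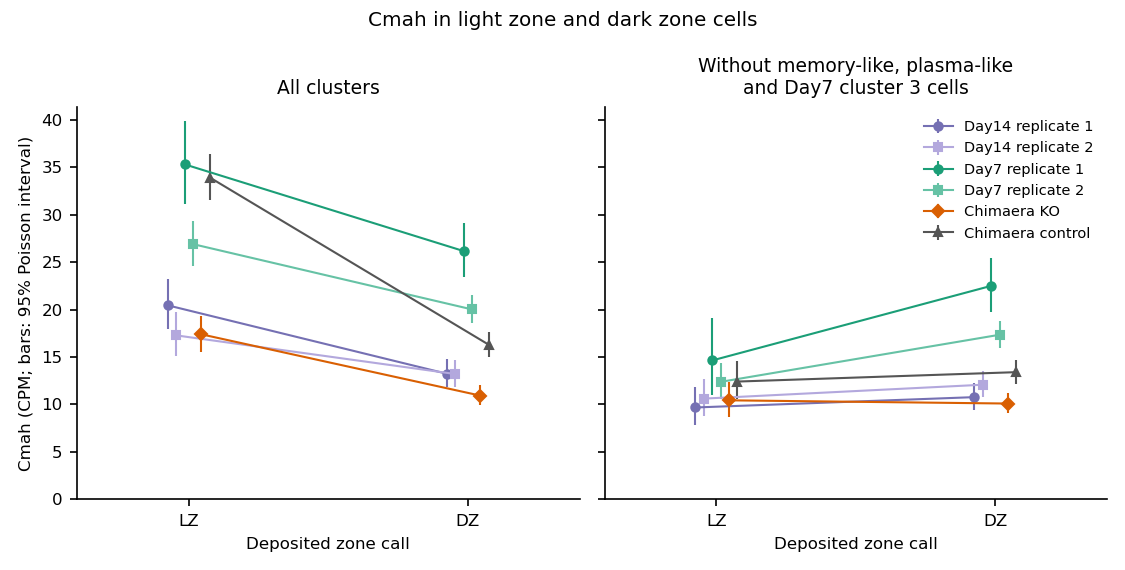
Cmah level (CPM, 95% Poisson bars) in LZ and DZ cells of each library, lines joining the values of a library, with all clusters on the left and without memory-like, plasma-like and Day7 cluster 3 cells on the right. LZ is above DZ in all 6 libraries on the left, where the fitted log2 difference is 0.59, and below it in 5 of 6 on the right, where it is -0.28.

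St6gal1 was lower in LZ than in DZ cells by a small margin. It had 202 and 223 CPM in LZ and 228 and 227 CPM in DZ cells at Day14, 238 and 178 CPM in LZ and 215 and 186 CPM in DZ cells at Day7, 180.3 CPM in LZ and 191 CPM in DZ cells of the KO library, and 139.9 CPM in LZ and 174 CPM in DZ cells of the control. The fitted log2 difference was -0.12 (SE 0.04, edgeR adjusted p = 0.0308), with LZ lower in 5 of 6 libraries and Day7 replicate 1 the exception, and the exact two-sided sign-flip test gave p = 0.25. The call was lost without Day14 replicate 1, Day14 replicate 2 or the control library (edgeR adjusted p 0.102, 0.0645 and 0.104). Without the MYC-high selected-like clusters the St6gal1 difference was 0.01. These clusters, lowest in St6gal1 in every library, were chosen after seeing the data, so that value is a description and no test. Cmas differed by -0.09 (SE 0.04, adjusted p = 0.0622) and Neu1 by -0.07 (SE 0.05, adjusted p = 0.228), so neither difference passed the test with all cells. Cmas passed without Day14 replicate 1 (-0.11, edgeR adjusted p = 0.0424). Without the memory precursor-like and plasma-like clusters and Day7 cluster 3 the Cmas difference was -0.20. A plasma-like cluster was highest in Cmas and these clusters were picked with levels known, so that value is a description and no test. With G1 cells alone Neu1 was lower in LZ by 0.25 on the log2 scale (log2 difference -0.25, adjusted p = 0.00581).

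All 4 genes were lower in S phase than in G1 cells, in 6 of 6 libraries each. Cmah fell most: S cells had 11.4 and 11.4 CPM against 22.3 and 20.5 CPM in G1 cells at Day14, and 21.4 and 15.5 CPM against 39.4 and 33.3 CPM in G1 cells at Day7. S cells had 10.6 CPM against 18.3 CPM in G1 cells of the KO library, and 15.97 CPM against 36.04 CPM in G1 cells of the control. The 95% intervals of S and G1 cells did not overlap in any library. The log2 difference was -0.95 (SE 0.07, edgeR adjusted p = 1.41e-07) for Cmah, -0.25 (SE 0.04, adjusted p = 8.79e-05) for St6gal1, -0.15 (SE 0.04, adjusted p = 0.00839) for Cmas and -0.15 (SE 0.04, adjusted p = 0.00782) for Neu1. Of 10565 genes tested, 34.3% were called lower in S and 29.6% higher. Without the memory precursor-like and plasma-like clusters and Day7 cluster 3, left out with their Cmah level known, the Cmah difference was -0.34 (SE 0.07), a description and no test. In that fit 33.3% of 10269 genes were called lower and 26.3% higher, and the Cmas difference was -0.05, likewise a description and no test. The Cmas call was lost by DESeq2. The Neu1 call was lost without the MYC-high selected-like clusters, an alternative chosen after seeing the data (edgeR adjusted p = 0.0671). With cells thinned to 2000 UMIs neither gene was called.

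G2M cells likewise had less Cmah, St6gal1 and Neu1 than G1 cells in 6 of 6 libraries. Cmah had 12.5 and 11.7 CPM in G2M cells at Day14, 25.8 and 19.5 CPM at Day7, 11.8 CPM in the KO and 16.4 CPM in the control library, each below the G1 level given above. The log2 difference was -0.76 (SE 0.07, edgeR adjusted p = 4.48e-06) for Cmah, -0.13 (SE 0.04, adjusted p = 0.00983) for St6gal1 and -0.21 (SE 0.05, adjusted p = 0.00195) for Neu1. Cmas, at 0.03 (SE 0.04, adjusted p = 0.57), did not pass. Of 10623 genes tested, 31.6% were called lower in G2M and 28.4% higher. Cells of the memory precursor-like and plasma-like clusters and of Day7 cluster 3 made up 6.82% to 54.6% of G1 cells and 2.17% to 8.98% of G2M cells. Without them the Cmah difference was -0.05 (SE 0.08), again a description and no test. The Neu1 call was lost with thinned cells, and the St6gal1 call with Day14 and chimaera libraries only.

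**Figure D4:**
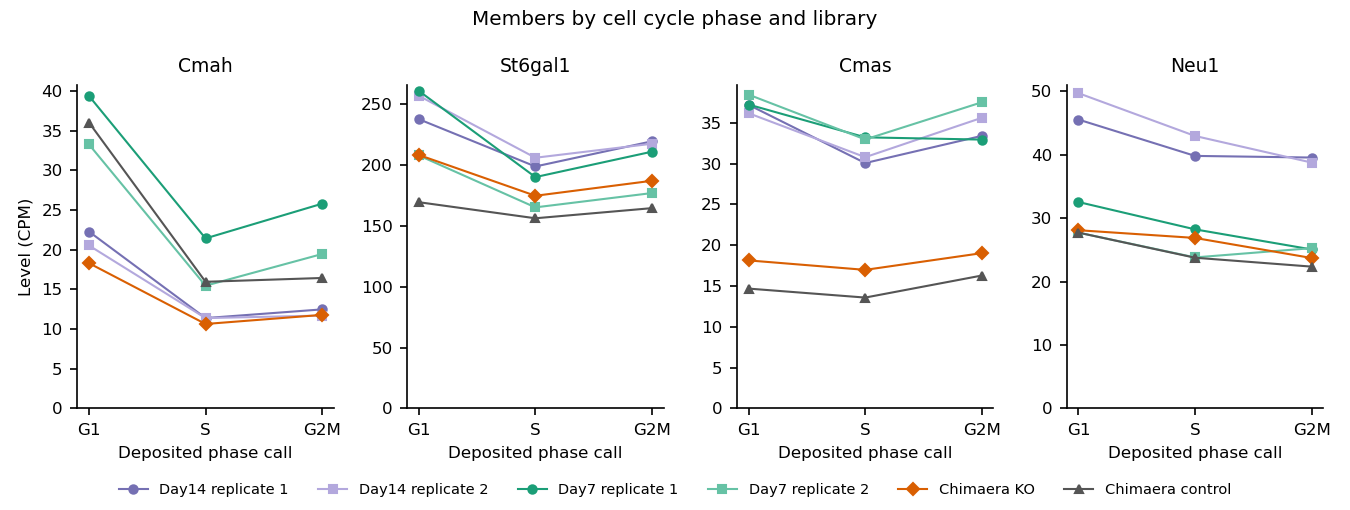
Level of each gene (CPM) in G1, S and G2M cells, 1 line per library. Cmah stands at 18.3 to 39.4 CPM in G1, 10.6 to 21.4 CPM in S and 11.7 to 25.8 CPM in G2M cells, and the other 3 genes change less.

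Day14 cells had less Cmah than Day7 cells. The 2 Day14 libraries had 15.5 and 14.5 CPM and the 2 Day7 libraries 29.5 and 22.5 CPM, without overlap. The log2 difference over the summed libraries was -0.95 (SE 0.13, edgeR adjusted p = 0.0010). The lower Day14 level also showed in some clusters of like name, with 6.20 and 4.58 CPM at Day14 against 10.2 and 8.12 CPM at Day7 in the MYC-high selected-like clusters, and with 9.13 to 13.3 CPM at Day14 against 17.3 to 36.2 CPM at Day7 in the dark zone or cycling-like clusters. The plasma-like clusters were mixed beside the 122.9 CPM of Day7 replicate 2. Day14 cluster 9 had 149 and 101 CPM, above and below that level, and Day14 cluster 8 had 14.6 and 12.1 CPM, well below it, from 4 and 3 counts. Neu1 was higher at Day14, with 41.7 and 43.7 CPM against 28.8 and 25.6 CPM at Day7 (log2 difference 0.48, SE 0.08, adjusted p = 0.0018). Cmas had 33.7 and 34.3 CPM at Day14 and 34.6 and 36.4 CPM at Day7 (log2 difference -0.24, SE 0.07, adjusted p = 0.0243). St6gal1 had 219.6 and 227 CPM at Day14 and 223 and 183 CPM at Day7, and did not pass (log2 difference -0.04, SE 0.09, adjusted p = 0.739). The Cmas call was lost without either Day14 library (adjusted p 0.178 and 0.163) and without TMM, and St6gal1 was called lower without Day7 replicate 2 alone (log2 difference -0.16, adjusted p = 0.0212). Of 11995 genes tested, 33.0% (3957) were called lower at Day14 and 34.9% (4188) higher, and with totals not rescaled by TMM 3082 were called lower and 5115 higher. None of the 12 zone and phase differences of the 4 genes passed a test of its difference between the days (lowest edgeR adjusted p = 0.321, St6gal1 in LZ against DZ). Day, sorting gate, depth and the cells kept in each table changed together between these groups and cannot be told apart.

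In the chimaeras, cells from KO hosts had less Cmah than cells from control hosts. The KO library had 13.4 CPM (95% interval 12.5 to 14.3, 798 counts) and the control library 23.3 CPM (22.2 to 24.6, 1452 counts), a log2 ratio of -0.80 (-0.93 to -0.68). Between the 2 Day14 libraries the log2 ratio of Cmah, replicate 1 over replicate 2, was 0.10. The 2 Day7 libraries lay further apart, at 29.5 CPM (27.2 to 32.0) and 22.5 CPM (21.2 to 23.8) of Cmah. Their St6gal1 levels were 223 and 183 CPM. With 1 library per group there was no test. Over all cells, Cmah alone of the 4 was past the fold used here, an absolute log2 ratio of 0.5 or more with 20 CPM or more in one of the libraries, as were 2.49% of 5189 genes on the lower side and 0.886% on the higher. St6gal1 had 189 CPM in the KO and 164 CPM in the control library (log2 ratio 0.21, 0.17 to 0.25), Cmas 18.1 CPM in the KO and 14.8 CPM in the control library (0.28, 0.16 to 0.41) and Neu1 26.1 CPM in the KO and 24.8 CPM in the control library (0.08, -0.03 to 0.18).

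The KO to control ratio of Cmah varied between clusters, with KO the lower in 8 of 8. It was furthest from 0 in the memory precursor-like cluster, at 25.4 CPM (22.2 to 29.0) in the KO and 56.3 CPM (52.0 to 60.9) in the control library, a log2 ratio of -1.15 (-1.37 to -0.93), where 3.81% of 4988 genes were past the fold on the lower side and 2.02% on the higher. In G1 cells of that cluster it was 27.7 CPM in the KO and 65.6 CPM in the control library (log2 ratio -1.25, -1.52 to -0.98). The same cluster had a log2 ratio of -0.23 between the 2 Day14 libraries. Clusters 1 and 4, which have no name, had ratios of -0.66 (-0.998 to -0.33) and -0.74 (-1.35 to -0.16), at levels under 20 CPM. In the light zone-like (-0.18), cycling-like (-0.21), Cdc20-led number 5 (-0.15), MYC-high selected-like (-0.27) and plasma-like (-0.43) clusters the interval reached 0. Differences between clusters in this ratio were not tested.

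The make-up of the libraries and the markers of the memory precursor-like cells moved with Cmah. Memory precursor-like cells were 945 of 7314 KO cells (12.9%, Clopper-Pearson 95% interval 12.2 to 13.7) and 1304 of 8038 control cells (16.2%, 15.4 to 17.0), and plasma-like cells 1.86% of the KO and 3.58% of the control library. Without the memory precursor-like cells the log2 ratio of Cmah was -0.52 (-0.67 to -0.36), and with each cluster given the same share in both libraries it was -0.62. Within the cluster, 11 of the 12 memory precursor markers, from which it was named, were lower in KO cells by any margin. The median log2 ratio of all genes at 20 CPM or more there was -0.008. Summed marker levels were 1242 CPM in the KO and 1716 CPM in the control library, of which Klf2 alone gave 596 and 759 CPM. The margin was small for S1pr1, at 70.2 CPM in KO and 76.7 CPM in control cells, and larger for other markers. Cd38 had 65.98 CPM in KO and 105 CPM in control cells, Ccr6 84.7 CPM in KO and 154 CPM in control cells, and Ccr7 15.99 CPM in KO and 58.1 CPM in control cells. Gpr183, at 92.4 CPM in KO and 66.9 CPM in control cells, went the other way. The part of these markers in the Cmah difference was not tested.

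St6gal1 went the other way from Cmah in most chimaera clusters, with KO the higher in 7 of 8. In the memory precursor-like cluster it had 167 CPM in the KO and 132 CPM in the control library (log2 ratio 0.33, 0.23 to 0.44). The interval of St6gal1 reached 0 in the plasma-like cluster (-0.13 to 0.37) and in cluster 5 (-0.14 to 0.12). Its ratio was past the fold in no cluster. Cmas was higher in KO cells in 8 of 8 clusters, with ratios of 0.08 to 0.79 that rest on 50 to 248 counts a library. Its interval reached 0 in the memory precursor-like cluster (-0.18 to 0.45), the plasma-like cluster (-0.43 to 0.56), cluster 4 (-0.09 to 0.99) and cluster 5 (-0.19 to 0.63). Neu1 had ratios of -0.10 to 0.54, and in 8 of 8 clusters the interval reached 0. The ratio of 0.54 (-0.11 to 1.18), in the plasma-like cluster, was past the fold from 35 KO and 56 control counts, in a cluster where 11.6% of genes were past it on the higher side and 4.22% on the lower. The median log2 ratio of genes at 20 CPM or more there was 0.11. With immunoglobulin left out of the totals, Neu1 had 30.1 CPM in the KO and 22.0 CPM in the control library. Cmah had 49.8 CPM in the KO and 71.4 CPM in the control library on those totals.

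**Figure D5:**
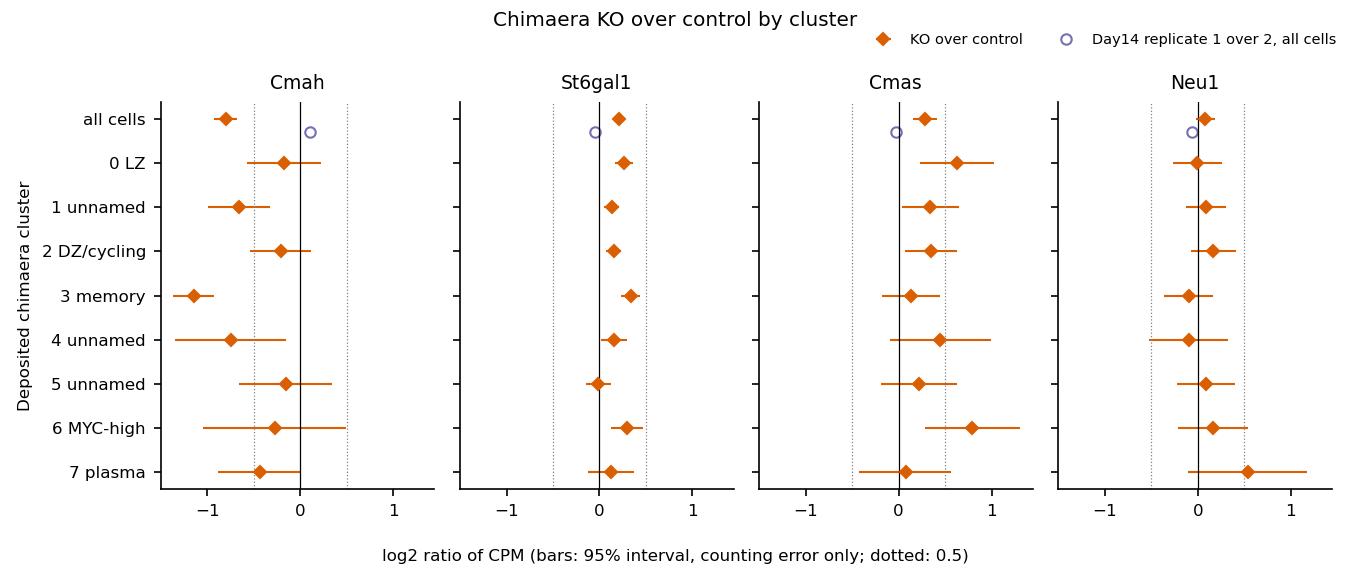
Log2 ratio of CPM, KO over control, for each gene in all cells and in each deposited chimaera cluster, with 95% intervals for counting error, and the Day14 replicate 1 over replicate 2 ratio in all cells as an open circle. Cmah lies left of 0 in each cluster and furthest in the memory-like one (-1.15), while St6gal1 lies between -0.01 and 0.33.

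The wider sialic acid list held 44 other genes for the making, transfer, removal and recognition of sialic acids. In LZ against DZ cells 27 of them passed the filter on low counts, of which 19 were called higher and 1 lower, beside 31.3% and 29.3% of all genes tested, with a median log2 difference of 0.31 against 0.01 over all genes tested. Without the memory precursor-like and plasma-like clusters and Day7 cluster 3, 15 of 27 were called higher and 3 lower, beside 28.1% and 24.7% of all genes. The called genes with the largest differences were the sialyltransferases St8sia6 (log2 difference 1.33), St6galnac4 (0.79), St6galnac3 (0.78) and St8sia1 (0.77), the epimerase Renbp (0.86) and B4galt1 (0.78), the galactosyltransferase that builds the N-acetyllactosamine acceptor of St6gal1. Against G1 cells, 16 of 27 were called lower and 4 higher in S cells, beside 34.3% and 29.6% of all genes (median -0.29 against -0.04 over all genes). In G2M cells 18 of 26 were called lower and 1 higher, beside 31.6% and 28.4% of all genes (median -0.36 against -0.03). In S cells those named by the rule were the sialyltransferases St3gal4 (1.502), St3gal1 (-0.94), St3gal5 (0.87) and St6galnac3 (-0.71), the lysosomal sialic acid exporter Slc17a5 (-0.65) and Renbp (-0.60). In G2M cells they were St8sia6 (-1.07), Renbp (-0.98), St6galnac3 (-0.94), Slc17a5 (-0.76), St8sia1 (-0.73) and the lysosomal galactosidase Glb1 (-0.65).

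Between the days, 29 of the 44 passed the filter, with 8 called higher at Day14 and 9 lower (median log2 difference -0.01 against 0.04 over all genes), shares no larger than the 34.9% and 33.0% of all genes. The higher ones included Cd22 and Siglecg, receptors that read sialic acids on B cells. Cd22 had 454 and 480 CPM at Day14 against 171 and 165 CPM at Day7 (log2 difference 1.30, SE 0.06, edgeR adjusted p = 2.64e-05), and Siglecg 397 and 379 CPM at Day14 against 184 and 155 CPM at Day7 (1.02, SE 0.09, adjusted p = 0.000139). The other named genes were the sialyltransferases St3gal1 (2.60), St3gal4 (1.53) and St6galnac3 (1.39), and Slc35a1, which carries CMP-sialic acid into the Golgi (-1.10). In the chimaeras 20 of the 36 listed genes in the table reached 5 CPM, 9 above and 11 below a ratio of 1 with a median log2 ratio of -0.02 against 0.01 over all genes at 20 CPM or more. Of the 7 that reached 20 CPM, which the fold requires, 0 were past it, beside 2.49% lower and 0.886% higher of all genes. Cd22 had 172 CPM in the KO and 179.6 CPM in the control library.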

How the data were processed

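Each of the 3 deposited tables gives whole-number UMI counts for every gene and cell, not normalised by the authors as the values show, beside a cell table with library, zone, phase and cluster. The submitters' processing notes name Cell Ranger, Seurat and mm10, and the labels' protocols give the 5′-end droplet kit. How zones, phases and clusters were called is not given in the sources used here. All deposited cells were kept and no doublet caller was run. The 4 genes, gene lists and markers were chosen with earlier results of these data known.

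Counts were summed per library, and per library with zone or phase. Tests used edgeR 4.0.16 in R 4.3.3 (filterByExpr, TMM, quasi-likelihood, Benjamini-Hochberg over all genes tested, adjusted p under 0.05), over the 26599 symbols of both tables for Day14 against Day7 and the 14548 of all 3 tables within libraries, with the library as a block. SE is the absolute log2 difference over the square root of F. Labels do not say that replicates were separate animals, so p-values measure only the spread between these libraries. KO to control ratios carry exact conditional binomial 95% intervals, for counting error only. Genes named beyond the 4 follow a rule: up to 6 called genes of the sialic acid list with the largest change, and the 5 most and 3 least similar genes, of which some are not reported here. Cd22 in the chimaeras was added after its values were seen. Clusters took a marker class at a median log2 ratio of at least 0.5 with at least 3 markers raised.

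On simulated counts for Day14 against Day7 (11995 genes), 90% of genes changed by a log2 of 1 and 100% of those changed by 2 were recovered, with 29 false calls. Alternatives were DESeq2 1.42.0, other filters and scalings, thinning to 2000 UMIs per cell, and leaving out libraries or clusters.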

Additional observations from a re-analysis of the deposited data

Results flagged for a closer look

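Of the 12 sets of 6 within-library differences (the 4 genes in LZ against DZ, S against G1 and G2M against G1 cells), 1 held a library far from the others. The log2 ratio of Neu1 in S over G1 cells was -0.076 in the KO library, against -0.20 to -0.25 in the other 5 libraries. Chance sets a library apart in about 1 in 20 such sets.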

How the results depend on the processing

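Of the alternative values of the 4 genes in tested comparisons, 189 kept direction and call, 19 lost the call, 5 gained it and 7 changed sign; the causes were not tested unless given. Values are log2 differences. The counts take in fits that left out clusters with their levels known, which are descriptions and no test. Day14 against Day7: St6gal1 was 0.15 without TMM, 0.062 without the memory precursor-like and plasma-like clusters and Day7 cluster 3, and -0.16 to 0.039 with 1 library left out. Cmas was -0.054 without TMM, -0.19 without plasma-like clusters, -0.17 without the memory precursor-like clusters and Day7 cluster 3 as well, and -0.35 to -0.18 with 1 library left out. Without TMM the median of all genes moved to 0.23, against 0.04. LZ against DZ: Cmah was -0.28 without those clusters and 0.40 to 0.82 otherwise, the highest without MYC-high clusters. St6gal1 was -0.078 without TMM, -0.10 with Day7 and Day14 libraries only, -0.10 with cells thinned, 0.0083 without MYC-high clusters and -0.17 to -0.091 with 1 library left out. Cmas was -0.11 without the filter, -0.20 without those clusters and -0.11 to -0.080 with 1 library left out. With G1 cells only, Neu1 was -0.25 and 3963 genes were called, against 6584. S against G1: Cmas was -0.16 by DESeq2, -0.19 thinned and -0.049 without those clusters, and Neu1 -0.11 thinned and -0.11 without MYC-high clusters. G2M against G1: Cmah was -0.047 without those clusters, St6gal1 -0.10 with Day14 and chimaera libraries only, Cmas -0.034 without TMM and -0.0094 with Day7 and Day14 libraries only, and Neu1 -0.16 thinned. KO over control: Cmah was -0.52 without memory precursor-like cells and -0.62 with equal cluster shares, and Neu1 -0.11 thinned. Fits with 1 library left in a group take its spread from the other group.

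With the replicate number as a block (replicate block), Cmah in Day14 against Day7 was -0.95 and 8401 genes were called, against 8145, and no call of the 4 genes changed. Nothing in the labels says that equal numbers pair the libraries; their deviations from the group means correlated at r = 0.219 over 4887 genes. Thinning dropped cells under 2000 UMIs and kept 6781 of 9109 and 7624 of 10648 Day14 cells.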
